A study of Oryza sativa with 4 samples.

Results

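The genes described here lie in a block on rice chromosome 6. They were chosen as the genes on that chromosome with gene numbers from LOC4339880 to LOC4340140 and at least 1 probe set on the array, which gave 157 of 17905 measured genes, each represented by its probe set with the highest mean signal. The annotation lists 294 genes from the first to the last member, so members called neighbours below can have other genes between them. Shoots came from 18-day-old rice seedlings (Oryza sativa) grown in soil and then kept completely under water in a greenhouse. The 4 groups were M202(Sub1) after 6 days, M202(Sub1) after 1 day, M202 after 6 days and M202 after 1 day, with 1 Affymetrix rice array for each. M202 is a japonica cultivar sensitive to submergence, and M202(Sub1) is a near-isogenic line that carries the introgressed Sub1 tolerance locus of chromosome 9. All plants were submerged, so every difference is between lines or between times under water, and no group had a second array. The number of arrays limits the precision, no test was made, and differences are given as log2 values beside the same count over all genes.

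A near-isogenic line is made by crossing a donor of a wanted locus to a recurrent parent and backcrossing while selecting for that locus. Donor segments can persist at the selected locus and elsewhere, and neighbouring genes on such a segment are inherited together. An expression array reads each gene through short probes designed on a reference sequence, so its signal depends both on how much transcript is present and on how well that transcript matches the probes. Sequences of the probes and of both lines were not used here, so less transcript and a poorer match cannot be told apart in any difference between the lines. In whole shoots, fewer cells that use a gene and less RNA per cell cannot be told apart either. The block is known to breeders for Wx (waxy), which encodes the granule-bound starch synthase that makes amylose.

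The block was picked because it held several genes apart between the lines at both times, so its counts for genotype are a description and carry no support of their own. A gene was counted as apart at a difference of at least 2-fold, which is 1 on the log2 scale, if its highest value reached the level floor, the 50th percentile of all values (log2 signal 5.52). Of the 157 members, 141 reached the floor, 123 of them on all 4 arrays. The other 16 lay under it on every array and are not counted below. Among the 141, 13 were at least 2-fold lower in M202(Sub1) at both times (9.22%), against 0.318% of all 15419 genes above the floor. In the other direction 3 were higher at both times (2.13%), against 0.435% of all genes. Counted at 6 days whatever the value at 1 day, 15 were lower and 7 higher, where 2.18% and 3.85% of all genes were. Counted at 1 day in the same way, 16 were lower and 3 higher, where 1.01% and 0.778% of all genes were. These counts include the genes apart at both times. Most of the block was unlike these genes, since 97 of the 141 (68.8%) were less than 1.5-fold apart at both times, against 80.2% of all genes.

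**Figure D1:**
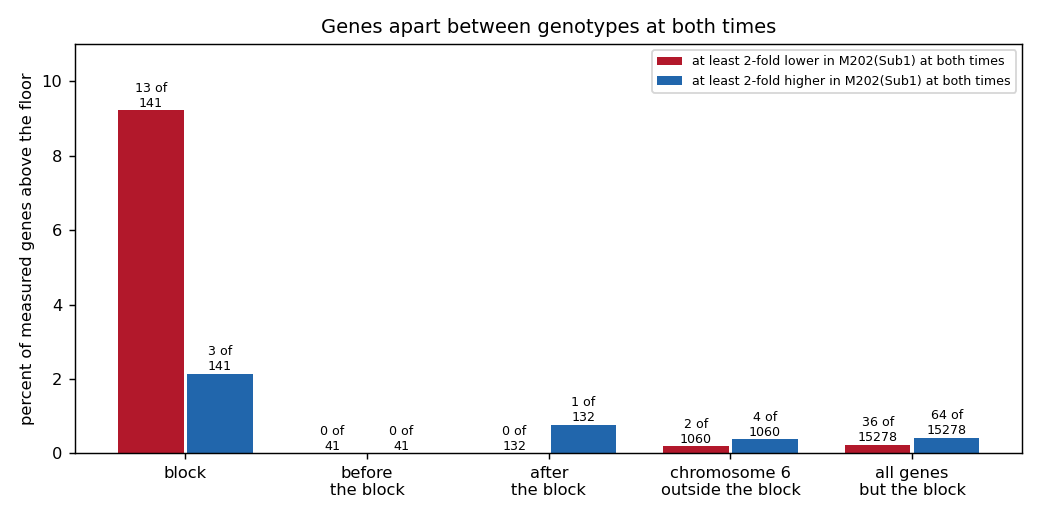
Percent of measured genes above the floor that were at least 2-fold lower (red) or higher (blue) in M202(Sub1) than in M202 at both times, in the block, in up to 157 measured genes on each side of it, in chromosome 6 outside the block and in all genes but the block. The block has 13 lower and 3 higher genes of 141, and the genes before it have none of 41.

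The block held a large share of the genes most strongly lower in M202(Sub1) in the whole table. Of the 49 genes at least 2-fold lower in M202(Sub1) at both times, 13 lay in the block (26.5%), which holds 0.914% of the genes above the floor. At a 4-fold limit the block held 9 of 10 such genes, and 2 of the 17 genes at least 4-fold higher at both times. A stricter pattern is a gene that lay under the floor on each M202(Sub1) array and above it on each M202 array, at least 2-fold lower at both times. Of all genes, 7 had it (0.0454%), and all 7 were members. The count depends on the floor, since with a 75th percentile floor 5 of 15 such genes were members, and with a 25th percentile floor 2 of 2. The opposite pattern was found in 8 genes (0.0519%), none of them a member.

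The densest stretch was a run of 7 neighbouring members above the floor, LOC4339938 to LOC4339947, all of them at least 2-fold apart at both times. The annotation used here gives these genes a number and no name, so no role is stated for any of them. LOC4339940 stood at 3.98 at 6 days and 4.85 at 1 day in M202(Sub1), against 9.50 and 10.82 in M202, a difference of -5.52 at 6 days and -5.97 at 1 day. LOC4339944 was at 3.30 and 3.93 in M202(Sub1) at 6 days and 1 day, against 7.81 and 10.70 in M202. Its differences of -4.51 and -6.77 correspond to signals 22.8-fold lower at 6 days and 109-fold lower at 1 day. In LOC4339940 and LOC4339944 both M202(Sub1) values were under the floor, where the size of a difference is uncertain.

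LOC4339938 had 4.14 at 6 days and 3.90 at 1 day in M202(Sub1), against 7.20 and 8.42 in M202, which gave differences of -3.06 and -4.52. For LOC4339942 the M202(Sub1) arrays gave 4.46 and 4.65, and the M202 arrays gave 5.63 and 6.94, so that it was lower by a log2 value of -1.17 at 6 days and -2.29 at 1 day. LOC4339946 lay at 4.35 and 4.59 in M202(Sub1), against 6.07 and 5.68 in M202, with differences of -1.72 and -1.09. In each of these 3 genes both M202(Sub1) arrays were below both M202 arrays and below the floor, so the size of the differences is uncertain. The M202 values of LOC4339942 at 6 days (5.63) and LOC4339946 at 1 day (5.68) were only just above the floor. LOC4339943 was at 3.45 and 4.04 in M202(Sub1) and 4.87 and 5.76 in M202. It passed the floor on the M202 1-day array alone, and its differences were -1.42 and -1.72.

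The last gene of the run went the other way. LOC4339947 was at 8.93 at 6 days and 8.64 at 1 day in M202(Sub1), against 5.6 and 6.08 in M202, differences of 3.33 and 2.56. This was the highest genotype difference of any member above the floor at each time. All 4 of its values were above the floor, and its M202 values were close to it. Thus the run held 6 lower genes followed by 1 higher gene, and its 7 genes each rest on 1 probe set.

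**Figure D2:**
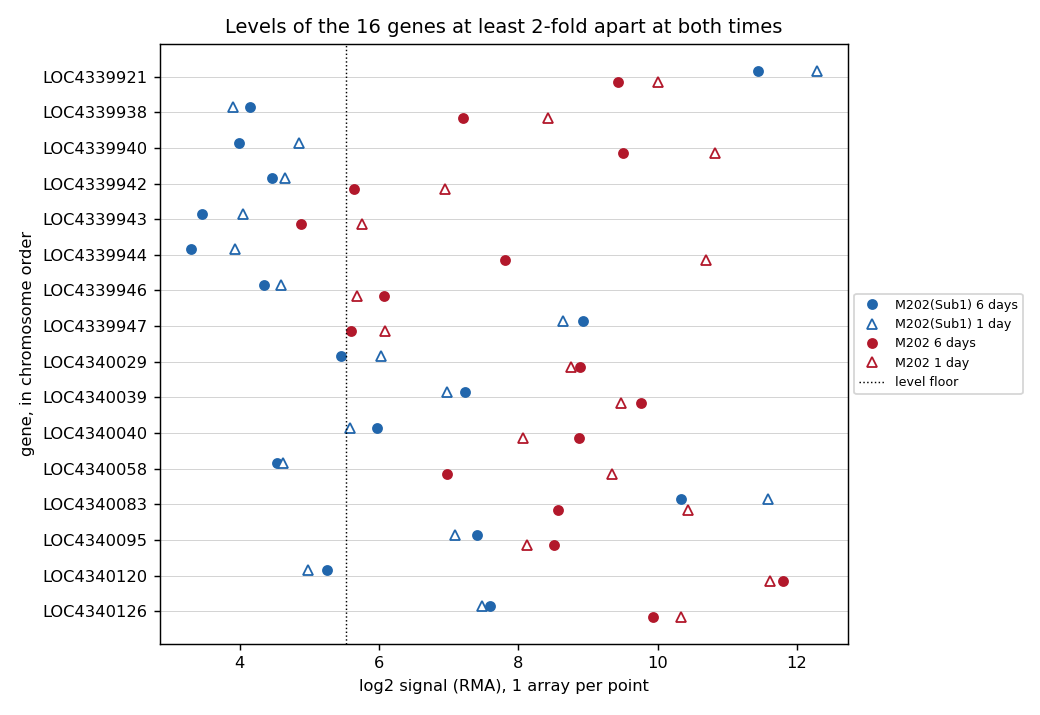
Log2 signal on each of the 4 arrays for the 16 members at least 2-fold apart between the lines at both times, in chromosome order from the top. M202(Sub1) is blue and M202 is red, circles are 6 days and triangles 1 day, and the dotted line is the level floor at 5.52. In each gene the 2 blue points lie on one side of the 2 red points except LOC4340083, where the M202(Sub1) 6-day value (10.34) is just under the M202 1-day value (10.44).

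A second set of lowered genes lay farther along, with other members between them. LOC4340029 was at 5.45 and 6.03 in M202(Sub1) at 6 days and 1 day, against 8.88 and 8.75 in M202, differences of -3.44 and -2.72. Its M202(Sub1) 6-day value was just under the floor. LOC4340039 stood at 7.23 and 6.97 in M202(Sub1), against 9.76 and 9.48 in M202, and its neighbour LOC4340040 at 5.96 and 5.59, against 8.87 and 8.07. LOC4340039 was lower by nearly the same amount at both times, by -2.53 and -2.50, and LOC4340040 by -2.91 and -2.48. All values of both genes were above the floor, but the M202(Sub1) 1-day value of LOC4340040 (5.59) only just.

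LOC4340058 resembled the dense run, with 4.54 and 4.63 in M202(Sub1) at 6 days and 1 day, against 6.98 and 9.35 in M202, and differences of -2.44 and -4.73. Both of its M202(Sub1) values were under the floor, so the size of these differences is uncertain. LOC4340095 was lower by a small margin, at 7.40 and 7.09 in M202(Sub1), against 8.51 and 8.12 in M202 (-1.10 and -1.03). All 4 values of LOC4340095 were above the floor, and those of each line lay close together. Nearer the far end were LOC4340120 and LOC4340126.

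LOC4340120 was at 5.25 at 6 days and 4.98 at 1 day in M202(Sub1), both under the floor, against 11.81 and 11.62 in M202, a difference of -6.55 and -6.64. The size of this difference is uncertain, since it is taken against values under the floor. Its level hardly differed between the times within a line, by 0.27 in M202(Sub1) and 0.19 in M202. LOC4340126 was at 7.59 and 7.47 in M202(Sub1), against 9.94 and 10.33 in M202, differences of -2.35 and -2.86 with all values above the floor. Between these genes lay LOC4340123, which was at 7.34 and 8.02 in M202(Sub1), against 9.29 and 8.84 in M202. Its differences of -1.95 at 6 days and -0.83 at 1 day put it just outside the count for both times.

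The other genes higher in M202(Sub1) at both times each had more than 1 probe set, and the sets did not all tell the same. LOC4339921 was at 11.44 at 6 days and 12.28 at 1 day in M202(Sub1), against 9.44 and 10.0035 in M202, differences of 2.0 and 2.28. A second probe set of the same gene, also well above the floor, differed by 0.12 and 0.08, so this gene is apart on 1 of its 2 sets, and the mean of both sets gave 1.06 and 1.18. Its neighbour LOC4339922 showed the reverse split. Its brighter set, whose name marks possible cross-hybridisation, differed by -0.55 and -0.54, and its other set was at 6.27 and 6.31 in M202(Sub1), against 8.16 and 8.69 in M202 (-1.90 and -2.38).

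LOC4340083 was higher in M202(Sub1), at 10.34 and 11.59 at 6 days and 1 day, against 8.57 and 10.44 in M202, differences of 1.77 and 1.15. The lines overlapped across times, since its M202(Sub1) 6-day value was below its M202 1-day value. Its 4 probe sets were all above 0 at both times, from 0.87 to 1.77 at 6 days and from 0.72 to 1.43 at 1 day. The neighbours LOC4340079 and LOC4340084 are measured by probe sets that carry the same cluster numbers in their names, so signal shared among these 3 genes cannot be set aside. They differed in opposite directions, LOC4340079 by -0.75 and -1.60 and LOC4340084 by 0.64 and 0.78. Across the block, 26 members had several probe sets above the floor. Among those with a set at least 2-fold apart, all sets had 1 sign in 4 of 4 members at 6 days and 5 of 5 at 1 day. Sets under the floor were left out of this count, such as a second set of LOC4340079 that gave -0.34 and 1.21.

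The 16 genes were spread unevenly over the block. None of the first 21 members above the floor was among them, and LOC4339921 was followed by 11 other members before the dense run began. After LOC4339947 came 45 members in a row that were not apart at both times, the longest such stretch, which includes Wx. From LOC4340029 on, 8 of the remaining members were apart at both times, in ones and twos. In successive runs of 10 members, the median genotype difference was -1.30 at 6 days and -1.41 at 1 day in the run that holds LOC4339938 to LOC4339947, and -0.64 and -0.51 in the run from LOC4340115 to LOC4340138. In the other full runs it lay between -0.31 and 0.16 at 6 days.

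**Figure D3:**
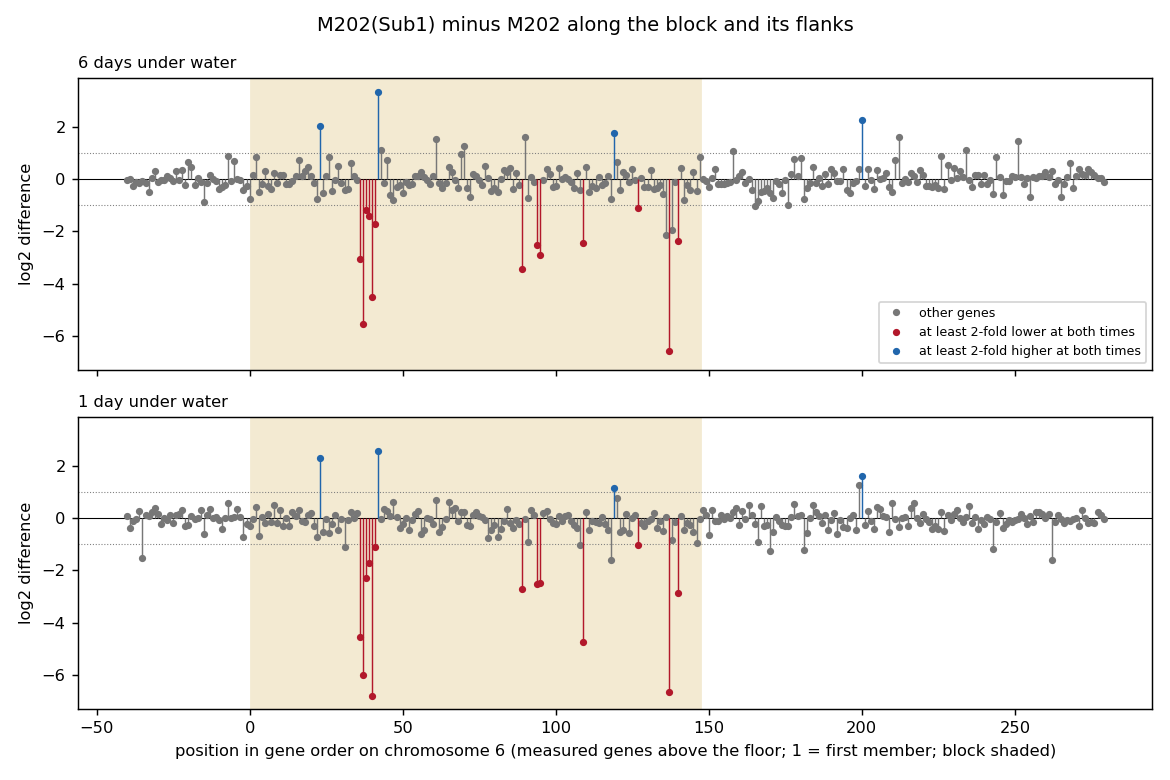
Log2 difference, M202(Sub1) minus M202, at 6 days (upper panel) and 1 day (lower panel) for measured genes above the floor in chromosome 6 order. The block is shaded and includes 6 measured genes between its ends with gene numbers outside the range; red and blue mark genes at least 2-fold lower or higher at both times, dotted lines are 2-fold, and the 7 neighbours of the dense run stand together near position 40.

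The edges of the block are set by gene numbers, not by a change in signal. The first member, LOC4339880, differed by 0.14 at 6 days and -0.05 at 1 day, and LOC4339879, the nearest measured gene before it, by -0.76 and -0.29. The last member, LOC4340140, differed by 0.84 and -0.02, and LOC4340142 beyond it by -0.01 and 0.31. Before the block, none of 41 measured genes above the floor was apart at both times. After it, the first such gene was IAA20 (LOC4340245), an Aux/IAA repressor of auxin response, 53 measured genes on, higher in M202(Sub1) by 2.26 at 6 days and 1.60 at 1 day. The next was 516 measured genes away. In all, 6 of 1060 genes above the floor on chromosome 6 outside the block were apart at both times, against 16 of 141 within it. The weakest genes inside the 2-fold limit were LOC4340095 and LOC4339946, with smaller differences of 1.03 and 1.09 in size, and the nearest outside were LOC4340123 (0.83) and LOC4340079 (0.75).

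The genotype differences at 6 days and at 1 day share no array. Across the 141 members the differences at 6 days and 1 day correlated with r = 0.898, given as a description over genes on the same 4 arrays, and this value rests on the 16 genes apart at both times. Without them it was r = 0.473 over 125 members, and across all 15419 genes it was r = 0.396. Of the 16 genes, 7 had differences within 0.5 of each other on the log2 scale at both times, 9 had the larger difference at 1 day and 7 had it at 6 days. Of all 141 members, 84 were below 0 at 6 days (59.6%, against 49.6% of all genes), 92 at 1 day (65.2%, against 52.5%) and 65 at both times (46.1%, against 31.3%). Above 0 at both times were 30 (21.3%, against 29.0% of all genes). Of the 125 members not apart at both times, 52 were below 0 and 27 above 0 at both times, where 31.3% and 29.0% of all genes were. The other 46 differed in sign, a share not computed over all genes. The median of the 125 was -0.10 at 6 days and -0.07 at 1 day, against 0.00 and -0.01 for all genes.

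**Figure D4:**
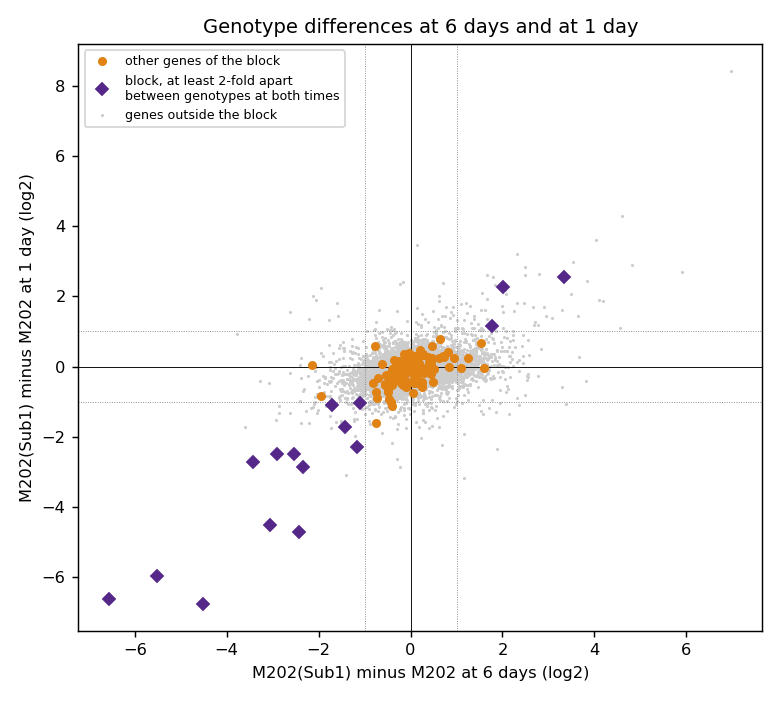
Genotype difference (M202(Sub1) minus M202, log2) at 6 days on the horizontal axis and at 1 day on the vertical axis, for 125 members (orange), the 16 members apart at both times (violet) and genes outside the block (grey). Dotted lines are 2-fold, and 13 violet points lie in the lower left corner, down to -6.55 at 6 days and -6.77 at 1 day.

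At only 1 time, 6 members were apart at 6 days (4.26%, against 5.14% of all genes) and 3 at 1 day (2.13%, against 0.901%), so the 6-day share was near that of all genes. LOC4340115 was at 4.09 at 6 days and 4.13 at 1 day in M202(Sub1), against 6.23 and 4.09 in M202, so that its difference of -2.14 at 6 days rests on the M202 6-day array alone. LOC4340032 was higher at 6 days by 1.60, at 6.19 in M202(Sub1) against 4.58 in M202, and differed by -0.04 at 1 day. LOC4339986 (1.54), LOC4340001 (1.24) and LOC4339955 (1.09) were higher at 6 days too. In these 4 genes M202 was lower at 6 days than at 1 day by a log2 value of 1 or more, the differences running from -1.14 to -1.92, and LOC4340032 and LOC4340001 were under the floor on the M202 6-day array. At 1 day LOC4340079 (-1.60), LOC4339930 (-1.12) and LOC4340057 (-1.02) were lower in M202(Sub1).

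The members with an informative name were all less than 2-fold apart between the lines on the probe set that represents them. There were 18, all above the floor, and none of the 16 genes apart at both times was among them. Of the 100 genes apart at both times outside the block, 22 had such a name, as did 15.6% of all genes above the floor. Wx was at 7.17 at 6 days and 8.20 at 1 day in M202(Sub1), against 6.89 and 7.84 in M202, differences of 0.28 and 0.36. Its other 5 probe sets differed by -0.34 to 0.18 at 6 days and -0.17 to 0.23 at 1 day, so no set of this gene was 2-fold apart.

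Among genes of growth and hormone action, KAO (LOC4339885), the ent-kaurenoic acid oxidase of gibberellin synthesis, had the largest genotype difference of the named members at -0.67 at 1 day, with -0.49 at 6 days. It stood at 9.64 and 8.78 in M202(Sub1), against 10.13 and 9.44 in M202. GRF5 (LOC4339928), a growth-regulating transcription factor, differed by 0.49 and -0.44, and CSLD2 (LOC4339895), a cellulose synthase-like protein, by 0.15 and 0.29. The homeodomain leucine zipper genes HOX28 (LOC4340069) and HOX2 (LOC4340070) differed by -0.35 and -0.15 and by 0.06 and -0.19. DREB1C (LOC4339974), a cold-response type regulator, was close to the floor on every array, from 5.36 to 5.86, and differed by -0.13 and -0.01.

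The other named members act in metabolism and in general cell functions, and none was 2-fold apart on its representative set. ADC1 (LOC4340008), an arginine decarboxylase of polyamine synthesis, was at 12.45 and 11.21 in M202(Sub1) at 6 days and 1 day, against 11.94 and 11.28 in M202, differences of 0.51 and -0.07, and its second probe set gave 0.17 and -0.70. G6PGH1 (LOC4339892), a 6-phosphogluconate dehydrogenase of the pentose phosphate pathway, differed by -0.37 and -0.14, and PEX11-5 (LOC4339973), which acts in peroxisome division, by -0.53 and -0.24. MSRA5 (LOC4340052), a methionine sulfoxide reductase, differed by -0.10 at both times, the ribosomal protein gene rps20 (LOC4340027) by 0.24 and -0.06, and the translation factor EF-4 (LOC4340102) by 0.34 and -0.05. The eyes-absent homologue OSEYA1 (LOC4339886) differed by -0.18 and 0.05, CNIH1 (LOC4340041), a cornichon cargo receptor, by -0.03 and 0.20, and XBOS36 (LOC4339988), a putative ubiquitin ligase, by -0.17 and -0.53. A dimmer second set of XBOS36, above the floor on the M202 1-day array alone, gave -0.63 and -1.41. The arginine methyltransferase gene PRMT10 (LOC4340089) differed by 0.25 and -0.45, and the DNA repair gene xrcc1 (LOC4340098) by -0.31 and -0.30.

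Time under water was not used to choose the block, although these differences share arrays with the genotype differences. In M202(Sub1), 3 of 141 members were at least 2-fold higher at 6 days than at 1 day and 6 were lower, against 6.25% and 4.61% of all genes. In M202, 5 were higher and 24 lower (17.0% lower), against 7.44% and 8.63% of all genes. The 24 genes were scattered over 14 of the 15 runs. Of the 24, 22 were also below 0 in M202(Sub1), a share not computed over all genes, and 4 were lower by 2-fold there. Among all genes, 478 of the 1330 lower in M202 were lower by 2-fold in both lines. The median difference of the 24 was -1.23 in M202 and -0.58 in M202(Sub1). Of the members not apart between lines at both times, 18 were lower in M202 (14.4%). The 24 included 6 of the 16 genes apart between lines. Examples are LOC4339944, with -2.89 in M202 and -0.63 in M202(Sub1), and LOC4340058, with -2.37 and -0.09. In both of these, and in LOC4339938, LOC4339940 and LOC4339942 among the 6, the M202(Sub1) values lay under the floor. The size of a difference is uncertain there.

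At least 2-fold apart with time in both lines were 2 members higher at 6 days (1.42%, against 4.83% of all genes) and 4 lower (2.84%, against 3.10%). The share of lower genes was thus near that of all genes. LOC4339989 was at 7.95 at 6 days and 4.32 at 1 day in M202(Sub1), and at 8.29 and 4.67 in M202, differences of 3.63 and 3.61. Both 1-day values were under the floor, and the lines differed by no more than 0.35 in size at either time. LOC4340042 was the largest in the other direction, at 8.47 and 11.45 in M202(Sub1) and 8.09 and 11.19 in M202, differences of -2.99 and -3.11.

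LOC4339994 was higher at 6 days by 1.40 in M202(Sub1) and 1.46 in M202, and its set is one whose name marks possible cross-hybridisation. LOC4340083, LOC4340015 and HOX28 were lower at 6 days, by -1.25, -1.02 and -1.24 in M202(Sub1) and by -1.87, -1.46 and -1.04 in M202. The other sets of LOC4340083 gave -1.36, -0.57 and -0.43 in M202(Sub1) and -1.25, -0.60 and -0.88 in M202. HOX2 was at -0.82 and -1.07, and Wx at -1.03 and -0.95, each past 2-fold in 1 line. The name of this Wx set marks possible cross-hybridisation, and no other set of Wx was 2-fold apart with time. Those sets ran from -0.91 to -0.13 in M202(Sub1) and from -0.80 to 0.11 in M202. ADC1 was higher at 6 days by 1.24 in M202(Sub1) and 0.66 in M202, and its second probe set gave 1.5 and 0.63.

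**Figure D5:**
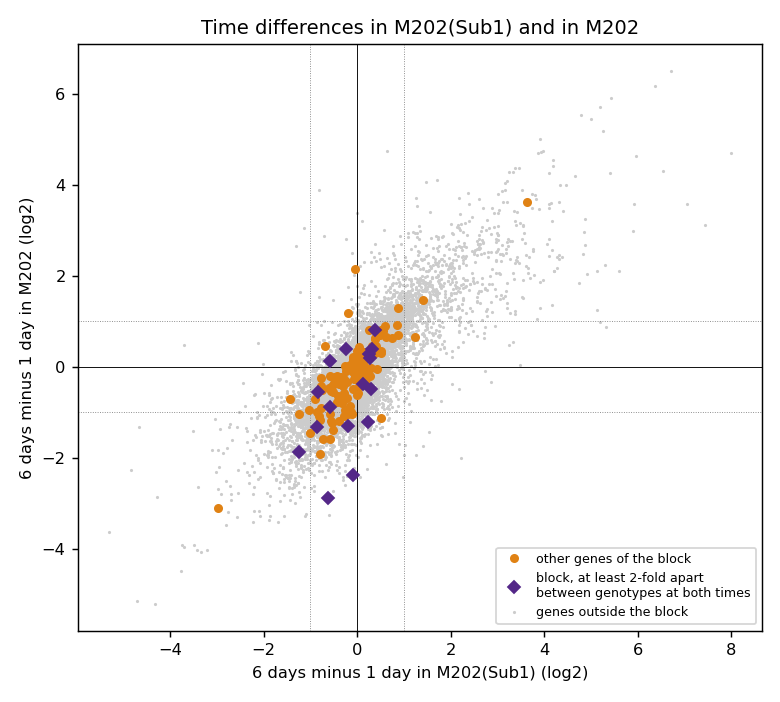
Time difference (6 days minus 1 day, log2) in M202(Sub1) on the horizontal axis and in M202 on the vertical axis, for 125 members (orange), the 16 members apart between lines at both times (violet) and genes outside the block (grey). Dotted lines are 2-fold; the outlying orange points are LOC4339989 (3.63 and 3.61) and LOC4340042 (-2.99 and -3.11), and the lowest violet point outside the cloud is LOC4339944 (-0.63 and -2.89).

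The median log2 signal over rice probe sets lay between 5.48 and 5.54 on the 4 arrays, which RMA sets to a common distribution, so these medians do not show whether the arrays differed. The label of shoot tissue was checked against 5 measured marker genes of green tissue, such as RBCS and CAB2R, which stood between 9.09 and 14.32. Of 3 measured root markers, LSI2 was under the floor on every array, and LSI1 and IRT1 lay between 7.0 and 8.13.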

How the data were processed

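Per the labels' protocols, total RNA from shoots was labelled with biotin for 1-colour Affymetrix arrays. The deposited table holds log2 values that the authors made with RMA, per the submitters' processing notes, which name no version and no set of arrays. RMA forces arrays to a common distribution and compresses differences near background. Of 57381 probe sets, 187 control and reporter sets were left out. Of the other 57194, 22436 carry 1 gene symbol in the platform annotation, 95 several and 34663 none. All 17905 genes were matched by gene number to RefSeq assembly ASM3414082v1, which gave names and gene order only. Python 3.11.15, numpy 2.4.6 and pandas 2.3.3 were used.

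With 1 array per group no test or p-value was computed. Genes named were all members apart at both times, the 5 largest others in each direction at each time, members under the floor in 1 line only, informatively named members apart in any difference and the 10 brightest others, the 5 largest time differences in each direction, and the edges; CSLD2, DREB1C, xrcc1 and some neighbours were added after their values were seen. Gene annotation gave numbers and no products for the rest, so the planned protein classes could not be filled, and protein and promoter sequences were not used here. Members and lists were chosen with earlier results of these data known. Calculations were tested on simulated data. Alternatives were other floors or none, all probe sets averaged, possibly cross-hybridising sets left out, quantile normalization, median centring and a 4-fold limit.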

Additional observations from a re-analysis of the deposited data

Results flagged for a closer look

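Time differences ran in opposite directions in the lines, and differed between them by at least 2-fold, in 5 of the 141 members above the floor (3.55%), against 338 of all 15419 genes (2.19%). This was not tested, since each direction rests on 2 arrays. LOC4339938 differed by 0.24 in M202(Sub1) and -1.22 in M202, a difference between time differences of 1.46. LOC4339966 differed by -0.20 in M202(Sub1) and 1.18 in M202 (-1.38), with all 4 values above the floor. A dimmer second probe set of LOC4339966, also above the floor, gave 0.12 and 0.09, so only the brighter set shows opposite directions. LOC4340032 differed by 0.51 in M202(Sub1) and -1.14 in M202 (1.64). LOC4340115 differed by -0.04 in M202(Sub1) and 2.14 in M202 (-2.18), and LOC4340123 by -0.68 and 0.45 (-1.13). LOC4339938, LOC4340032 and LOC4340115 were under the floor on at least 1 array.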

How the results depend on the processing

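The 13 lower and 3 higher genes apart at both times were all kept with quantile normalization, median centring, no floor and the 25th percentile floor, and when all probe sets were averaged or possibly cross-hybridising sets were left out. Without a floor and at the 25th percentile LOC4340037 joined them, and with averaged or left-out sets LOC4339922 did. A floor at the 75th percentile removed LOC4339942, LOC4339943 and LOC4339946, which left 10 lower genes. At that floor 15 genes of the whole table, 5 of them members, lay under it on each M202(Sub1) array and above it on each M202 array, so the count of 7 of 7 holds for the main floor and not for every floor, and at the 25th percentile it was 2 of 2. The 9 of 10 genes lower by 4-fold were the same count under every alternative run. A 4-fold limit changed some member counts by more than 1.5-fold, and only those are listed. Between the lines they were 10 lower at 1 day and 2 higher at 6 days. With time they were 1 higher and 1 lower in M202(Sub1), 2 higher and 3 lower in M202, and 1 higher and 1 lower in both lines. The shares of all genes at that limit were not computed for these counts. Without possibly cross-hybridising sets 1 member was higher with time in both lines, and after median centring 2 were lower. No called difference of a named member changed sign. No paired analysis was possible because each group has 1 array. The number of arrays and signal near background limit every value.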

Other observations

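Outside the block, 1 gene above the floor was at least 4-fold lower in M202(Sub1) at both times. It was LOC9268343 on chromosome 9, picked after its values were seen, at 7.17 at 6 days and 6.98 at 1 day in M202(Sub1), against 9.69 and 9.53 in M202. Its differences were -2.53 and -2.55, and its position relative to Sub1 was not examined. Between the first and last member lay 6 measured genes whose gene numbers fall outside the range, and none of them was 2-fold apart between the lines. The largest was LOC9270179, with 0.85 at 6 days and -0.57 at 1 day.

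LOC4340037, under the floor on all 4 arrays, had the same genotype difference of -1.10 at both times, equal within 1e-05. Across the array, 269 probe sets had genotype differences at both times that were equal within that tolerance.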
